A study of Mus musculus with 12 samples.

Results

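The mature mouse microRNAs (miRNAs) mmu-miR-103-3p and mmu-miR-107-3p, written here without the species prefix, were followed in livers injured with carbon tetrachloride (CCl4), a toxin that causes hepatic fibrosis. They were taken by name as 2 of the 1929 rows of a miRNA count table, and both were present and passed the filter on low counts. All animals were C57BL/6 mice given CCl4 by intraperitoneal injection. The PZH group (6 libraries) also received Pien Tze Huang, a preparation of Chinese medicine abbreviated PZH, by the intragastric route, and the water group (6 libraries) received double distilled water by that route. Age, dose and duration are not given in the labels, and no uninjured or PZH-only livers were analysed here, so both groups carry the CCl4 injury. Small RNA from liver tissue was sequenced, and no label states outright that each library is a different mouse, so p-values measure only the spread between these samples.

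miRNAs repress messenger RNAs that pair with their seed, the stretch of bases near the 5′ end. The genes of miR-103 and miR-107 lie in introns of genes for pantothenate kinases, the enzymes that begin the synthesis of coenzyme A from vitamin B5. In mice, both miRNAs are known to be raised in liver in obesity and to lower insulin sensitivity, with caveolin-1 as a described target in fat cells, and in cancer cells they are known to repress Dicer, an enzyme of miRNA maturation.

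The mature sequences are shown because a single base separates the 2 miRNAs, which decides how far their counts can be told apart. Sequences are from RefSeq on the GRCm38.p6 build, 5′ to 3′, with the seed (bases 2 to 8) in capitals.
miR-103-3p: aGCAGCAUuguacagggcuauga
miR-107-3p: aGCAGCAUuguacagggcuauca
miR-103-1-5p: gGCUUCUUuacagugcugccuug
miR-103-2-5p: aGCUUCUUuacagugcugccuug
miR-107-5p: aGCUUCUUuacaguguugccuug
Both 3p miRNAs are 23 bases long and differ by the substitution G22C, counted from 1 at the 5′ end with the base of miR-103-3p first, so the seed is the same. Of 1679 mature miRNA names in the RefSeq table, only these 2 carry this seed, and no other came within 4 mismatches of either over 20 or more bases. How the authors assigned reads that end before position 22 is not given in the sources used here. Each of the 2 counts may therefore hold reads of the other. Their sum is free of that exchange if each read was counted once, which is not stated either.

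The 3 hairpins below give rise to these miRNAs, shown here with the 3p arm in capitals to set their shared arm against their diverging loops.
Mir103-1: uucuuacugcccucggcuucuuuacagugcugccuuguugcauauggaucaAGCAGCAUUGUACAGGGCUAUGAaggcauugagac
Mir103-2: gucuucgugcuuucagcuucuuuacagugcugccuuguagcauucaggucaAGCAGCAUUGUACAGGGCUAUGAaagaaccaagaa
Mir107: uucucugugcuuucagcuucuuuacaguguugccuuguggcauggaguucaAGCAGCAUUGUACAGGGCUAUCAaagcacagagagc
Mir103-1 lies at chr11:35782396-35782481 on the plus strand, in intron 5 of Pank3. Mir103-2 lies at chr2:131288052-131288137 on the plus strand, in intron 5 of Pank2 in its 7-exon transcript. Mir107 lies at chr19:34820687-34820773 on the minus strand, in intron 5 of Pank1 in its 7-exon transcripts. Each hairpin is on the strand of its host and overlaps no exon of a protein-coding host transcript in GENCODE M21. The mature miR-103-3p of both Mir103 loci has 1 sequence, so its count cannot be split between Pank3 and Pank2.

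Total counts ranged from 4961913 to 20211784 per library. The liver miRNA miR-122-5p stood between 90316 and 126884 CPM (counts relative to library size, scaled with the trimmed mean of M-values, TMM) in PZH livers and between 95293 and 116004 CPM in water livers, so the defining hepatocyte miRNA was abundant in every library. Of 607 miRNAs tested between the groups, edgeR called 129 at a Benjamini-Hochberg adjusted p under 0.05, which is 21.3%. The median log2 fold change of all 607, PZH over water, was -0.03. Within the water group, replicate 2, the deepest library, had the highest summed level of epithelial and biliary miRNAs (miR-200a-3p, miR-200b-3p, miR-200c-3p, miR-141-3p and miR-429-3p), at 2192 CPM against 1151 CPM in the next water library. It was also the highest water library in the summed levels of mesenchymal (87992 against 70783 CPM), muscle (89.2 against 26.6 CPM) and pancreas miRNAs (27.9 against 9.19 CPM).

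The more abundant member, miR-103-3p, was measured at 3208, 2886, 2997, 2856, 3155 and 3355 CPM in PZH replicates 1 to 6. In water replicates 1 to 6 it stood at 2340, 3405, 2892, 2533, 2774 and 2704 CPM. The PZH livers lay close together and above 4 of the 6 water livers, but water replicate 2 was the highest of all 12 libraries, so the groups overlapped. It averaged 3076 ± 196 CPM with PZH and 2775 ± 364 CPM with water (SD, n = 6 each). The log2 fold change was 0.15 (SE 0.09, 95% interval -0.03 to 0.33, edgeR adjusted p = 0.258), with no call and an interval that includes 0. As liver RNA mixes cell types, fewer cells of a type and less RNA per cell cannot be told apart. As a share of all counted miRNA reads it held 0.313% ± 0.0255 with PZH and 0.273% ± 0.0315 with water (SD, n = 6 each).

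The level of miR-107-3p was 394, 394, 390, 451, 408 and 492 CPM in PZH replicates 1 to 6. In water replicates 1 to 6 it was 428, 432, 444, 380, 393 and 510 CPM. Both groups spanned nearly the same range, with replicate 6 the highest in each. It averaged 422 ± 41.1 CPM with PZH and 431 ± 45.7 CPM with water (SD, n = 6 each). The log2 fold change was -0.03 (SE 0.09, 95% interval -0.23 to 0.16), within the spread between replicates (edgeR adjusted p = 0.885). Under total-count and RLE scaling the log2 fold change was 0.01 and 0.00, so no direction is given for it.

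Neither miRNA was called by edgeR, DESeq2 or limma-voom, and neither passed 0.05 in edgeR before adjustment. The groups overlapped for both, while among all tested miRNAs 5.11% lay wholly higher and 4.94% wholly lower in PZH livers. The 95% intervals include 0 and reach 0.33 on the log2 scale for miR-103-3p and -0.23 for miR-107-3p, so changes of those sizes are not excluded.

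**Figure D1:**
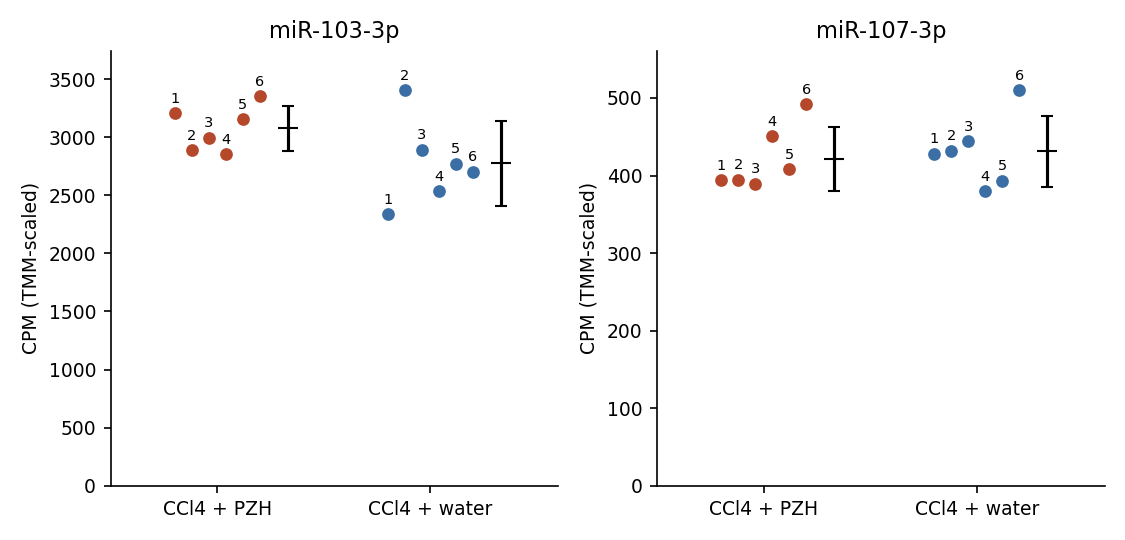
Levels of miR-103-3p (left panel) and miR-107-3p (right panel) in CPM after TMM scaling, with 1 numbered point per library and the mean ± SD in black (n = 6 each). The PZH livers lie between 2856 and 3355 CPM for miR-103-3p, inside the range of the water livers (2340 to 3405 CPM), and both groups overlap for miR-107-3p.

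By mean level miR-103-3p was the 45th and miR-107-3p the 105th most abundant of the 1929 miRNAs. Places within single libraries ran from 43 to 48 for miR-103-3p in PZH livers and from 43 to 52 in water livers. For miR-107-3p the places ran from 100 to 108 with PZH and from 99 to 112 with water. Counts here are of whole short reads, and the mature miRNAs next to them in order are 20 to 22 bases long against 23, so levels were compared without a length correction, and unequal capture of different sequences in library preparation was not tested. The mean of miR-103-3p over all 12 libraries, 2925 CPM, lay below that of miR-24-3p (3322 CPM) and above that of the erythroid miR-144-3p (2844 CPM). The gap to miR-144-3p is far within the SD of that miRNA over the 12 libraries (669 CPM), while the gap to miR-24-3p is larger than the SD of either (320 CPM for miR-103-3p and 246 CPM for miR-24-3p). The mean of miR-107-3p, 426 CPM, stood between miR-15b-5p (428 CPM) and miR-3968 (421 CPM), and these 3 did not differ beyond their spread.

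The balance of the 2 members does not depend on scaling, since both counts come from 1 library. In PZH replicates 1 to 6, miR-107-3p made up 10.9%, 12.02%, 11.5%, 13.6%, 11.5% and 12.8% of their summed counts. In water replicates 1 to 6 it made up 15.5%, 11.3%, 13.3%, 13.0%, 12.4% and 15.9%. The water livers held both the highest shares, in replicates 1 and 6, and 1 of the lowest, in replicate 2. With 16089 to 73650 summed counts behind each share, the 95% Wilson intervals were narrow, for example 10.6% to 11.4% for PZH replicate 1 and 15.3% to 16.4% for water replicate 6, and they cover counting error only.

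The mean share was 12.1% ± 0.994 with PZH and 13.6% ± 1.78 with water (SD, n = 6 each), which corresponds to 7.34 ± 0.663 counts of miR-103-3p per count of miR-107-3p in PZH livers and 6.48 ± 0.975 in water livers. The mean log2 ratio of miR-107-3p to miR-103-3p was -2.87 with PZH and -2.68 with water, a difference of -0.19 (two-sided exact permutation p = 0.108, smallest possible 0.00216). In 5 of 6 PZH livers the ratio was below the median of the water livers. Leaving out water replicate 2 moved the difference to -0.25 (exact permutation p = 0.039), and over all alternatives tried p ranged from 0.039 to 0.216. Water replicate 2 is also the library given above with the highest epithelial and biliary, mesenchymal, muscle and pancreas levels in its group (for the epithelial and biliary list, 5 of 5 list members tested, none at 0 in all libraries, summed level 864 to 1246 CPM with PZH and 931 to 2192 CPM with water), and the part of these levels in the ratio was not tested.

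**Figure D2:**
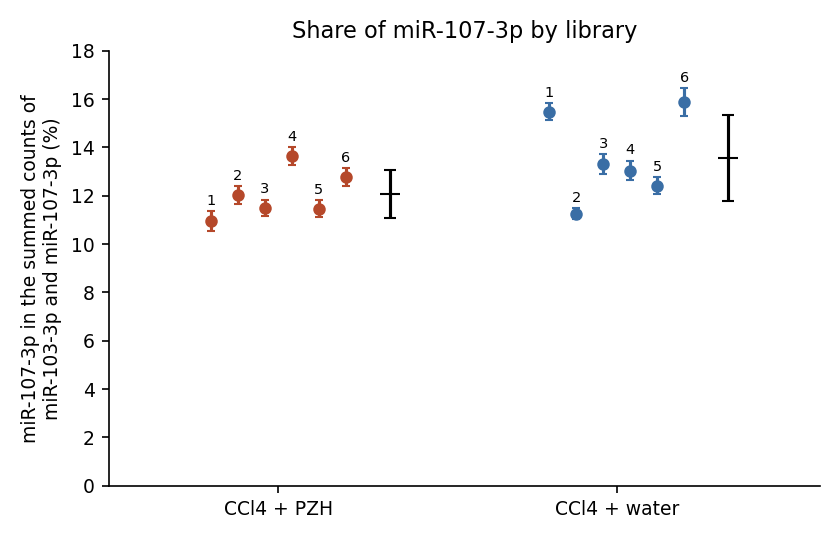
Share of miR-107-3p in the summed counts of miR-103-3p and miR-107-3p, in percent, with 1 numbered point per library, its 95% Wilson interval, and the group mean ± SD in black (n = 6 each). PZH livers lie between 10.9% and 13.6% and water livers between 11.3% and 15.9%, so the groups overlap.

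Taken as a sum, the pair is free of exchange between the near-identical sequences, provided that each read was counted once. The sum reached 3602, 3281, 3386, 3307, 3563 and 3847 CPM in PZH replicates 1 to 6. In water replicates 1 to 6 it reached 2768, 3837, 3336, 2913, 3167 and 3213 CPM. The mean was 3498 ± 216 CPM with PZH and 3206 ± 372 CPM with water (SD, n = 6 each), given as a description with no test. The ranges overlapped, again with water replicate 2 near the top.

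Across the 12 libraries the members did not move together measurably. Pearson's r of their log2 CPM was 0.116 (permutation p = 0.719, adjusted 0.797 over 4 relations) and Spearman's rho was 0.14 (permutation p = 0.666, adjusted 0.803). Without water replicates 1 and 2, the libraries farthest from the median of miR-103-3p, r was 0.161. Within the PZH group r was 0.366 (exact permutation p = 0.486) and within the water group 0.148 (exact permutation p = 0.797). After each group was centred on its mean, r was 0.208 (permutation p = 0.516).

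The 5p arms, which are mostly discarded when a hairpin matures, were close to the limit of detection. The table holds no count of 1, so the smallest count above 0 is 2. From Mir103-2, miR-103-2-5p summed to 16 counts over 5 of 6 PZH libraries and 39 counts over 6 of 6 water libraries. From Mir103-1, miR-103-1-5p had 4 counts each in PZH replicates 1 and 3 and was listed at 0 in all 6 water libraries. For miR-107-5p there were 18 counts over 5 of 6 PZH libraries and 37 over 5 of 6 water libraries. None of these passed the filter on low counts. Over all 12 libraries the 5p arms made up 0.018% of the arms of miR-103 (95% Wilson interval 0.0141% to 0.023%) and 0.109% of those of miR-107 (0.0836% to 0.142%). These intervals cover counting error in the pooled counts only. The highest share in a single library was 0.0336% for miR-103 and 0.319% for miR-107. Since miR-103-2-5p and miR-107-5p differ by the substitution C16U alone, and miR-103-1-5p and miR-103-2-5p by G1A alone, these few counts may be shared between loci. Arm ratios were not tested between the groups because the 5p arms averaged 5.25 and 4.58 counts per library, under the minimum of 10.

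The members belong to a wider group of miRNAs that share the core AGCAGC near the 5′ end, several of which are known to restrain the cell cycle. In miR-103-3p and miR-107-3p the core starts at base 1 and in the others at base 2, which shifts the seed by a base. The relatives are shown with the seed in capitals, so that this shift can be read.
miR-16-5p: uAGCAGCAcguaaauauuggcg
miR-15a-5p: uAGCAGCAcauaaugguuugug
miR-15b-5p: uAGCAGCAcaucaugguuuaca
miR-195a-5p: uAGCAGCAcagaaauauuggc
miR-497a-5p: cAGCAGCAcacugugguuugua
miR-322-5p: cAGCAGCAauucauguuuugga
miR-503-5p: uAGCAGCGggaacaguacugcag
Among RefSeq's mature miRNAs, 13 hold this core within bases 1 to 8. Of these, 9 form the listed group and were tested, and the other 4 (miR-195b, miR-6342, miR-6353 and miR-6419) averaged under 1 CPM and were not.

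Of the 9, 1 fell and 0 rose with PZH by edgeR, with a median log2 fold change of -0.03, equal to that of all tested miRNAs, where 11.4% were called lower and 9.88% higher. The one that fell was miR-503-5p, a repressor of cyclins, with 66.8 ± 5.33 CPM in PZH livers and 121 ± 10.3 CPM in water livers (SD, n = 6 each; log2 fold change -0.85). Its cluster partner miR-322-5p stood at 229 ± 24.4 CPM with PZH and 270 ± 19.3 CPM with water (SD, n = 6 each; log2 fold change -0.23, edgeR adjusted p = 0.083). In miR-15b-5p the level was 459 ± 40.2 CPM with PZH and 398 ± 16.8 CPM with water (SD, n = 6 each; log2 fold change 0.21, edgeR adjusted p = 0.0771). DESeq2 called miR-15b-5p higher (adjusted p = 0.0116), as did edgeR with RLE scaling, with the filter of 10 CPM in 6 libraries and without PZH replicate 2 (range of adjusted p over all alternatives 0.00924 to 0.231). The others were miR-16-5p (log2 fold change -0.13), miR-497a-5p (0.13), miR-15a-5p (-0.04) and miR-195a-5p (0.00), all without a call. Together, the 9 miRNAs summed to between 9517 and 11404 CPM in PZH livers and between 10515 and 11001 CPM in water livers.

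**Figure D3:**
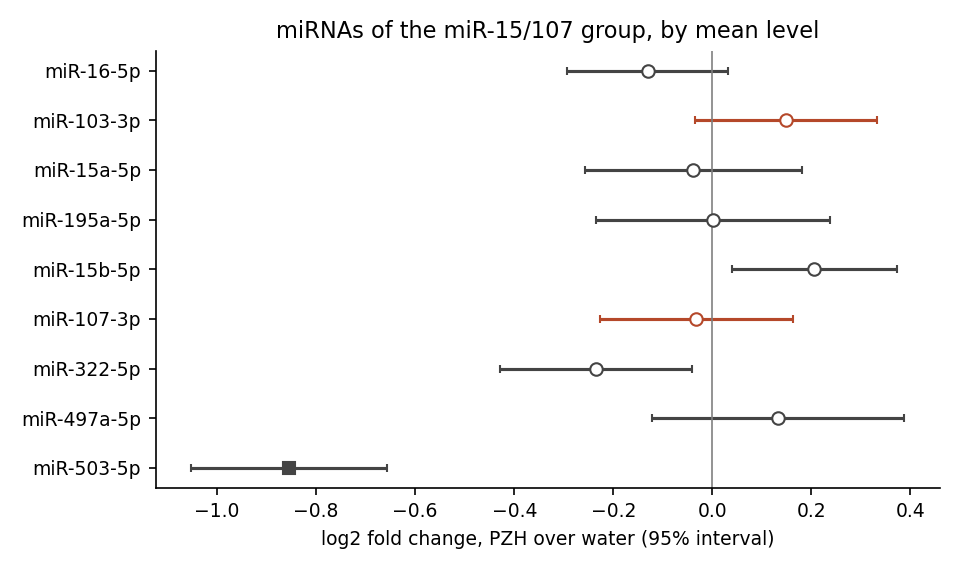
Log2 fold change, PZH over water, with its 95% interval for the 9 miRNAs of the group of miR-15 and miR-107, ordered by mean level, with the 2 members in red. A filled square marks miR-503-5p (-0.85), the single call, and the intervals of miR-103-3p (-0.03 to 0.33) and miR-107-3p (-0.23 to 0.16) include 0.

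A list of 22 miRNAs linked to insulin action or glucose and lipid handling was set beside the members. Of its 22 tested miRNAs, 8 fell and 1 rose with PZH, with a median log2 fold change of -0.07 against -0.03 over all 607. Over all tested miRNAs 11.4% were called lower and 9.88% higher. The list was drawn up with earlier results known, so its direction is not independent evidence. Its split was 5 lower and 2 higher with RLE scaling, 5 lower and 1 higher with total-count scaling, and 4 lower and 2 higher with the filter of 10 CPM in 6 libraries. Over all tested miRNAs the balance turned under the same settings, to 59 lower and 72 higher with RLE scaling, 59 lower and 68 higher with total-count scaling and 35 lower and 59 higher with the stricter filter, against 69 lower and 60 higher in the fit reported here. Those that fell were miR-802-5p, which lowers insulin sensitivity in mouse liver (log2 fold change -0.65), the miR-29 family of miR-29a-3p (-0.21), miR-29b-3p (-0.32) and miR-29c-3p (-0.40), the islet miRNA miR-375-3p (-1.97), the myeloid miR-223-3p (-0.58), and both arms of miR-378a, which lies within Ppargc1b (miR-378a-3p, -0.33, and miR-378a-5p, -0.32). The one that rose was let-7b-5p (0.28), of a family that represses insulin receptor signalling. The 2 members and the other 11, among them miR-143-3p, miR-26a-5p and miR-122-5p, had no call. The count of 9 calls was 4 without a filter on low counts and between 5 and 8 when any 1 library was left out, with 5 without water replicate 1 or 6 or PZH replicate 2 or 5. Over 21 alternatives, the call was lost in 12 for let-7b-5p, in 11 for miR-29a-3p, in 12 for miR-29b-3p and in 15 for miR-378a-5p. For miR-375-3p, at 2.42 ± 0.673 CPM in PZH livers and 9.44 ± 8.72 CPM in water livers (SD, n = 6 each), the log2 fold change was -1.27 without water replicate 2, still called, and limma-voom made no call (adjusted p = 0.0808; range over its alternatives 3.3e-05 to 0.0808).

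As miR-103-3p is widely used to normalise quantitative PCR, its spread between livers is given. The SD of its log2 CPM over the 12 libraries was 0.161, the 53rd lowest of 174 tested miRNAs that averaged 100 CPM or more, whose median was 0.207. It was 0.0917 within the PZH group and 0.184 within the water group. For miR-107-3p the SD was 0.137, the 33rd lowest, with 0.136 within the PZH group and 0.149 within the water group. Among 10 miRNAs used as normalisers, miR-26a-5p (0.0753), miR-25-3p (0.094), miR-16-5p (0.136) and miR-423-3p (0.159) varied less than miR-103-3p. At the other end were let-7i-5p (0.211) and miR-93-5p (0.208), in values that include any difference between the groups. Within the PZH and water groups, let-7i-5p was at 0.165 and 0.187, and miR-93-5p at 0.130 and 0.080. Of the 10, 1 rose with PZH, a share near the 9.88% called higher over all tested miRNAs. It was miR-93-5p, with 1784 ± 153 CPM in PZH livers and 1400 ± 76.1 CPM in water livers (SD, n = 6 each; log2 fold change 0.35, edgeR adjusted p = 0.00324). A second normaliser, let-7i-5p, was called higher under 6 of 21 alternatives, among them DESeq2 and the omission of water replicate 2.

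**Figure D4:**
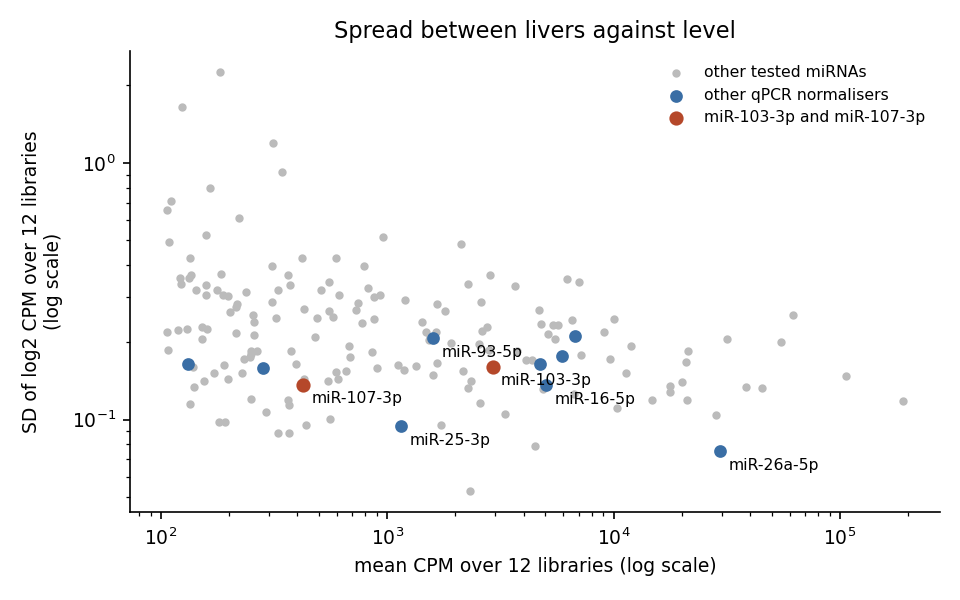
SD of log2 CPM over the 12 libraries against mean CPM, both on log axes, for the 174 tested miRNAs that averaged 100 CPM or more. The members (red) lie at 0.161 and 0.137, above miR-26a-5p, miR-25-3p and miR-16-5p among the normalisers (blue) and below the median of 0.207.

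The miRNAs whose log2 CPM most resembled each member over the 12 libraries were picked as the 3 highest of 173 Pearson correlations, so the values describe and do not test. For miR-103-3p they were miR-20a-5p of the miR-17-92 cluster (r = 0.906), miR-320-3p (0.852) and miR-99b-5p (0.795). Centred on group means, r was 0.908, 0.836 and 0.711, and without the 2 libraries farthest from the median of miR-103-3p it was 0.935, 0.716 and 0.662. Of these, miR-20a-5p (log2 fold change 0.28) and miR-99b-5p (0.31) rose with PZH by edgeR, calls that ended in 8 and 9 of 21 alternatives, and miR-320-3p stood at 0.11. For miR-107-3p the nearest were miR-802-3p (r = 0.658), miR-148a-3p (0.599) and miR-194-5p (0.576), with centred values of 0.674, 0.604 and 0.624. Without the 2 libraries farthest from the median of miR-107-3p, r was 0.541, 0.58 and 0.525. None of these 3 was called by edgeR, DESeq2 or limma-voom, and none passed 0.05 in edgeR before adjustment. The twin sequence miR-107-3p came 71st of 173 in likeness to miR-103-3p, and miR-103-3p came 88th in likeness to miR-107-3p.

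**Figure D5:**
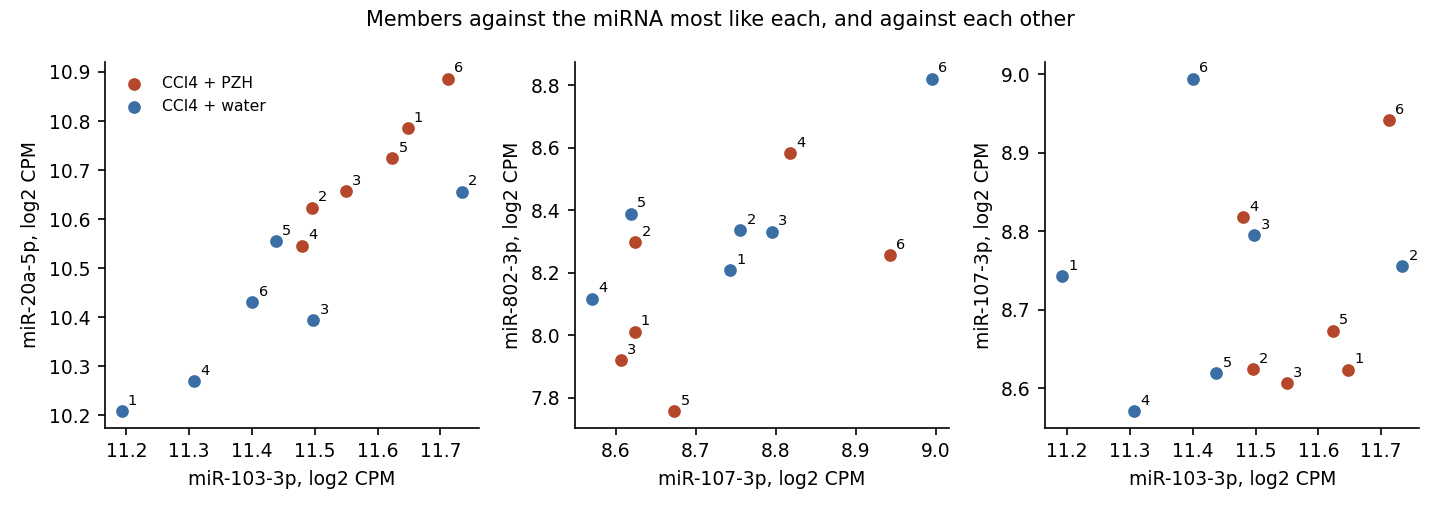
Log2 CPM of miR-103-3p against miR-20a-5p (left), miR-107-3p against miR-802-3p (middle) and miR-103-3p against miR-107-3p (right), with 1 numbered point per library and PZH in red and water in blue. The points run together for miR-20a-5p (r = 0.906) and scatter for the 2 members (r = 0.116).

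Markers of the cell types that liver tissue can hold were set beside the members. The hepatocyte marker (1 of 1 tested) and the mesenchymal list (5 of 5) had no call, with mesenchymal sums of 50274 to 87846 CPM in PZH livers and 60493 to 87992 CPM in water livers. Over all tested miRNAs 11.4% were called lower and 9.88% higher, and counts in these short lists are given as a description. The leukocyte list had 1 of 5 called lower, miR-223-3p, with sums of 3091 to 5513 CPM in PZH livers and 4147 to 5972 CPM in water livers. At an unadjusted edgeR p under 0.05, 3 of these 5 were lower and 0 higher, against 196 of all 607 in either direction. Both endothelial miRNAs, miR-126a-3p and miR-126a-5p, were called lower, with sums of 10272 to 13900 CPM in PZH livers and 12863 to 17096 CPM in water livers. Of the epithelial and biliary list, 2 of 5 were called lower, miR-200c-3p and miR-141-3p. Its sums were 864 to 1246 CPM in PZH livers and 931 to 2192 CPM in water livers. The highest of these was water replicate 2, and the next water library was at 1151 CPM. The erythroid list, whose cells are rich in miR-451a, had 0 of 4 tested called, with sums of 3237 to 5502 CPM in PZH livers and 3661 to 5759 CPM in water livers. Pancreas and muscle miRNAs stayed at or under 89.2 CPM summed, the muscle level of water replicate 2, with 1 of 1 tested pancreas miRNA (miR-375-3p) lower and 0 of 2 tested muscle miRNAs called. DESeq2 and limma-voom also called none of the hepatocyte, mesenchymal, erythroid and muscle miRNAs, of which 1 mesenchymal miRNA was higher and 1 erythroid miRNA lower at an unadjusted edgeR p under 0.05. Calls in the epithelial list numbered 2 with DESeq2 and 0 with limma-voom, and in the endothelial list 1 with each. The pancreas call was made by DESeq2 and not by limma-voom, and its log2 fold change was -1.27 without water replicate 2. The part of these shifts in the values of miR-103-3p and miR-107-3p was not tested.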

How the data were processed

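The authors deposited raw counts per mature miRNA, 1 column per library, with no normalization. Per the labels, Trizol was used for extraction and a TruSeq small RNA kit for library preparation. The submitters' processing notes name cutadapt, FastQC, BWA, DESeq2 and GRCm38; how reads were counted, with which miRNA annotation, and how reads with several matches were placed is not stated in those notes as listed. Reads carry no molecular identifiers. The Wilson intervals cover counting error only, while the intervals of the log2 fold changes also take in the spread between libraries.

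All 12 libraries were used. Counts were fitted in edgeR 4.0.16 by quasi-likelihood (R 4.3.3) after TMM scaling and its default filter, which kept 607 miRNAs, with Benjamini-Hochberg adjustment over all of them. CPM use TMM-scaled totals, and log2 CPM a prior count of 2. As a check of the code, the fit was also run on simulated counts with dispersions estimated from these data. No result here rests on that run. Two-sided exact permutation tests of ratios ran over 924 assignments of libraries to groups (SciPy 1.17.1). Correlations used 100000 permutations for 12 libraries and full enumeration for 6. Alternatives were 3 scalings, 2 filters, DESeq2 1.42.0, limma-voom (limma 3.58.1), robust edgeR, a block for the replicate number and leaving out each library.

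Members, lists and markers were chosen with earlier results of these data known. The rule for names took the members, the other arms of their hairpins, the tested members of 3 lists (relatives of miR-15 and miR-107, insulin and glucose metabolism, normalisers), the 3 miRNAs most like each member and its neighbours in abundance. Fold changes are printed for all relatives and for the called miRNAs of the other lists. Sequences and positions are from RefSeq and GENCODE M21, both on GRCm38, and 1647 of the 1929 names matched a RefSeq mature name.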

Additional observations from a re-analysis of the deposited data

How the results depend on the processing

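Over 21 alternatives, miR-103-3p kept a positive log2 fold change (0.10 to 0.23) and had no call (adjusted p 0.0558 to 0.508). That of miR-107-3p had no call either (adjusted p 0.599 to 0.9999) and changed sign with RLE scaling (0.0040), total-count scaling (0.0070), the filter of 10 CPM in 6 libraries (0.0526) and DESeq2 (0.0046), with a range of -0.083 to 0.020 when 1 library was left out. Sign changes also occurred for miR-15a-5p (total-count scaling 0.0025, filter of 10 CPM 0.0471; -0.089 to 0.046 with 1 library left out) and miR-195a-5p (limma-voom -0.0136, replicate block -0.0179; -0.067 to 0.075 with 1 library left out); the cause was not tested. The difference in log2 ratio lay between -0.25 and -0.13 with 1 library left out and passed p under 0.05 without water replicate 2 alone. Calls over all miRNAs numbered 94 to 144, with 78 higher and 66 lower in DESeq2 against 60 higher and 69 lower in the fit reported here. Calls in the relatives' list were 2 with RLE scaling, the filter of 10 CPM and DESeq2 (1 to 2 with 1 library left out). Normaliser calls were 2 with RLE or total-count scaling, the filter of 10 CPM, DESeq2 and the replicate block (1 to 2 with 1 library left out). Insulin-list calls were 5 with the replicate block and 4 without a filter (5 to 8 with 1 library left out). Replicate numbers are shared by the groups, with nothing in the labels to pair the mice: same-numbered libraries correlated between -0.15 and 0.08 after centring, and 1 of 6 water libraries was most like the PZH library of its number. With the block, edgeR called 114 miRNAs, miR-103-3p stood at 0.16 and miR-107-3p at -0.03, and the ratio differed by -0.19 (exact sign-flip p = 0.156). The log2 ratio of the group means of the summed level, PZH over water, was 0.13 and ranged from 0.09 to 0.18. The test of arm ratios, with its pseudocount and other alternatives, was not run, since the 5p counts were under the minimum.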
